A study of Mus with 17 samples.

Results

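Small leucine-rich proteoglycans are secreted matrix proteins that sit on collagen fibrils. Of this family, 8 genes were followed in mouse liver: Dcn (decorin), Bgn (biglycan), Lum (lumican), Prelp, Fmod (fibromodulin), Ogn (osteoglycin), Aspn (asporin) and Podn (podocan). They were taken by name from the family, with earlier results of these data known, out of 24937 genes with a value in every library. RNA of whole liver had been sequenced from 17 male C57BL6/JBomTac mice, with 1 library per mouse. For 52 weeks 8 of them ate a western diet and drank water with 42 g/L of fructose, and 9 mice of matched age ate chow and drank plain water. All were fasted overnight before death. Diet and fructose were given together, so their effects cannot be told apart, and the labels describe the regimen as a model of advanced fatty liver disease with inflammation. The comparison asks how transcripts of the liver differed between the diets after that year.

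The proteins of this family have a core of leucine-rich repeats, bent into an arc, that binds collagen and limits how thick fibrils grow. Many carry sugar chains: chondroitin or dermatan sulphate on decorin and biglycan, keratan sulphate on lumican and fibromodulin. Decorin and biglycan also bind transforming growth factor beta, and free biglycan is a ligand of the receptors Tlr2 and Tlr4. In liver, stellate cells and portal fibroblasts are the main cells known to make them, and scar tissue is rich in them. The family is divided into classes by protein sequence and gene structure, and the results follow that order.

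Libraries held 3604212 to 9071908.5 estimated counts. Levels are given as CPM, counts scaled to a common library total with TMM factors, a correction for library composition, and they compare 1 gene between mice, not genes with each other, since transcript lengths were not used. The hepatocyte marker Alb stood at 3579 ± 811 (SD, n = 8) CPM in western diet livers, against 4670 ± 464 (SD, n = 9) CPM in chow livers, so the libraries carry the mark of the labelled tissue. A set of 13 pancreas markers summed to 5395 CPM in western diet replicate 5 and to 16902 CPM in chow replicate 2, against 174 to 660.4 CPM in the others. Each count of members was therefore also made without these 2 libraries.

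Western diet livers held more transcript of 4 of the 8 proteoglycans: Lum (3.93-fold), Bgn (1.86-fold), Prelp (1.63-fold) and Dcn (1.46-fold). No member fell, Podn, Fmod and Ogn did not pass the test, and Aspn was too low to be tested (n = 8 and 9; quasi-likelihood test of edgeR, with p adjusted by Benjamini-Hochberg over 13204 genes and called under 0.05). Changes were common in these livers: 48.4% of all tested genes passed, 24.8% as rises and 23.6% as falls. The median log2 difference was 0.54 over the 7 tested members and −0.0091 over all tested genes. Scaled by library size only, without TMM, the median of all genes moved to 0.12 and 73.5% of calls were rises, in place of 51.2%; the same 4 members rose. Without both libraries that carried pancreas transcripts the same 4 rose and Ogn fell. Tested against a change of 1.5-fold in place of none, 2 of the 4 passed, Bgn and Lum. In whole liver, more cells of a type and more RNA per cell cannot be told apart.

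Class I holds decorin, biglycan and asporin. Dcn ranged from 361 to 464 CPM on western diet, with a median of 413, and from 251 to 314 CPM on chow, with a median of 277. Every western diet mouse lay above every chow mouse, which held for 7.01% of all tested genes. Its mean was 411 ± 40.3 (SD, n = 8) against 282 ± 23.6 (SD, n = 9) CPM, a log2 difference of 0.54 ± 0.069 (SE) with an adjusted p of 3.08e-06. The gene lies on chromosome 10 from 97479500 to 97518163 of the mouse assembly GRCm38, which is also called mm10 and is the build of all positions here. Dcn was the steadiest member among mice, with a coefficient of variation of 9.81% on western diet and 8.37% on chow.

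Bgn (chromosome X, 73483601 to 73495936), the closest relative of decorin, ranged from 179 to 417 CPM on western diet with a median of 347. On chow it ranged from 150.5 to 205 CPM. In 7 of the 8 western diet mice it lay above the highest chow mouse, and western diet replicate 3 lay within the chow range. The means were 326 ± 77.7 (SD, n = 8) and 175 ± 18.4 (SD, n = 9) CPM, and the log2 difference of 0.90 ± 0.13 (SE) passed with an adjusted p of 9.83e-06. Aspn (chromosome 13, 49544443 to 49567565), which binds collagen but lacks the sugar chains of its relatives, had 2 to 9 counts in a western diet library and 2 to 14 on chow. Its level was 0.757 ± 0.393 (SD, n = 8) against 1.05 ± 0.386 (SD, n = 9) CPM. Fitted with no filter on low counts, its log2 difference was −0.53 ± 0.34 (SE) with an adjusted p of 0.244, so no difference was detectable at this depth.

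Class II holds lumican, Prelp and fibromodulin, and of the 7 tested members it held the largest and the smallest difference. Lum (chromosome 10, 97565501 to 97572703), which spaces collagen fibrils in the cornea, ranged from 40.8 to 110.2 CPM on western diet with a median of 72.2. On chow its range was 14.2 to 21.3 CPM with a median of 17.6. The lowest western diet mouse thus lay above the highest chow mouse. The means were 69.2 ± 22.3 (SD, n = 8) and 17.7 ± 2.32 (SD, n = 9) CPM. The rise was 1.97 ± 0.16 (SE) on the log2 scale, or 3.93-fold with a 95% interval of 3.11 to 4.96, with an adjusted p of 2.50e-08, and 98.8% of all tested genes had a smaller log2 difference. Western diet replicate 5, one of the libraries with pancreas transcripts, was the highest mouse; without it the log2 difference was 1.85 ± 0.13 (SE).

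Prelp (chromosome 1, 133910304 to 133930102), which has a basic tail that binds heparan sulphate and ties basement membrane to collagen, ranged from 93.9 to 196 CPM on western diet with a median of 172. On chow it ranged from 75.1 to 136 CPM with a median of 90.5. Western diet replicates 1 and 3 lay within the chow range, at 105 and 93.9 CPM, and the other 6 lay above it. The log2 difference was 0.71 ± 0.15 (SE), with means of 157 ± 38.4 (SD, n = 8) and 96.3 ± 19.7 (SD, n = 9) CPM and an adjusted p of 6.90e-04. Fmod (chromosome 1, 134037254 to 134048280), which guides early fibril assembly, ranged from 1.73 to 7.63 CPM on western diet and from 1.34 to 8.71 CPM on chow, so the diets overlapped almost whole. Its log2 difference was 0.12 ± 0.31 (SE), with an adjusted p of 0.781 and a 95% interval of 0.689- to 1.71-fold. Its coefficient of variation was 50.8% on western diet and 45.0% on chow, far above that of Dcn, and it rested on 8 to 65.5 counts a library. Its sign turned to −0.0038 without chow replicate 5 and to −0.0057 without western diet replicate 5.

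Classes III and V hold osteoglycin and podocan. Ogn (chromosome 13, 49608015 to 49624501), also called mimecan, ranged from 2.55 to 8.52 CPM on western diet with a median of 5.23, and from 5.53 to 10.04 CPM on chow with a median of 7.09. In 4 of 8 western diet mice it lay below every chow mouse, and the other 4 overlapped the chow range. The means were 5.45 ± 1.97 (SD, n = 8) and 7.42 ± 1.599 (SD, n = 9) CPM, and the log2 difference of −0.43 ± 0.19 (SE) missed the threshold with an adjusted p of 0.0714. Ogn was highest in the very libraries with pancreas transcripts, chow replicate 2 among chow mice and western diet replicate 5 among western diet mice. Without western diet replicate 5 it fell by 0.54 on the log2 scale with an adjusted p of 0.0224, and without both libraries by 0.48 with an adjusted p of 0.0370. Podn (chromosome 4, 108014793 to 108031954), a brake on smooth muscle growth in arteries, ranged from 8.36 to 19.0 CPM on western diet and from 7.004 to 13.9 CPM on chow. In 3 of the 8 western diet mice it lay above the chow range, and its log2 difference of 0.25 ± 0.16 (SE) did not pass, with an adjusted p of 0.212 and a 95% interval of 0.941- to 1.51-fold.

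**Figure D1:**
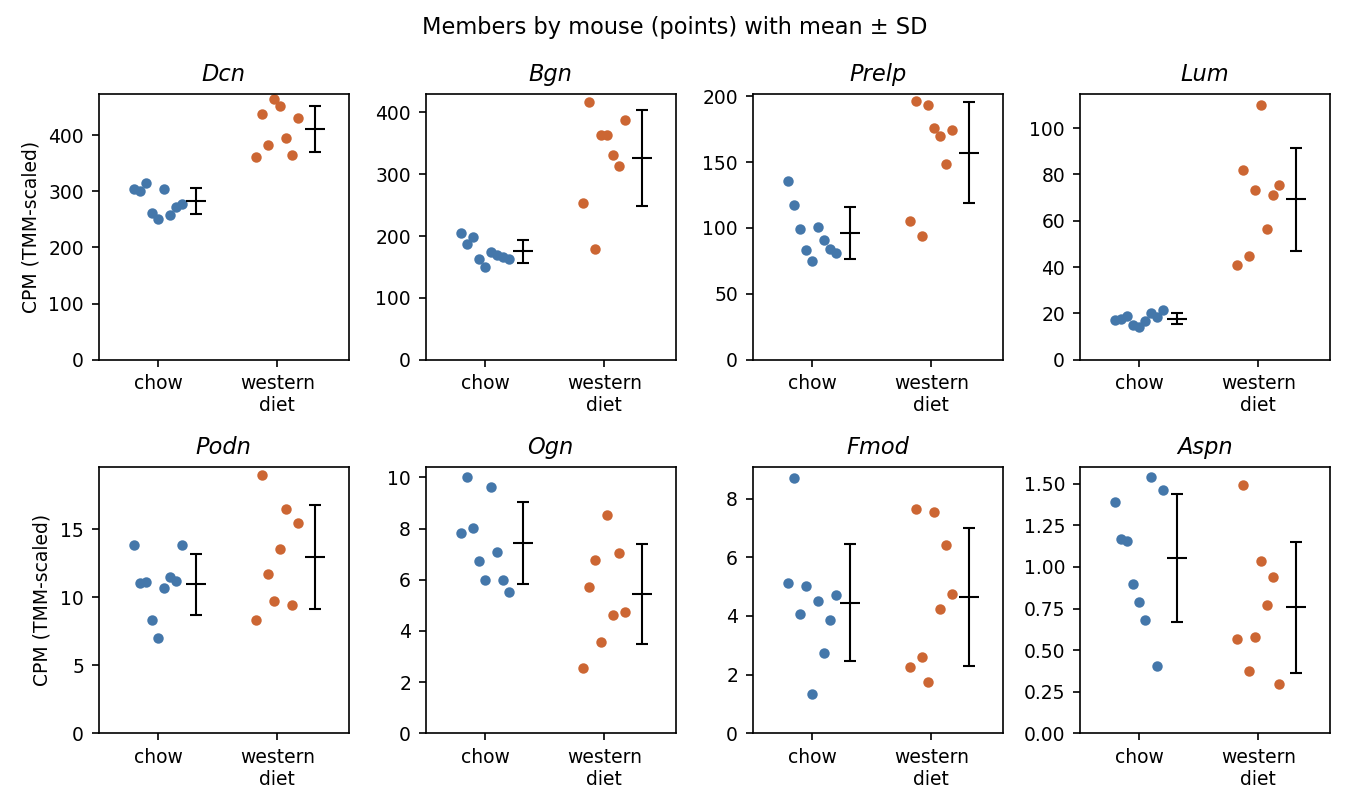
Level of each of the 8 members in CPM (vertical axes, each from 0) by diet, with 1 point per mouse in replicate order and the mean ± SD beside the points (n = 9 chow, n = 8 western diet). Dcn and Lum do not overlap between the diets, 1 western diet mouse reaches the chow range in Bgn and 2 in Prelp, and the ranges of Podn, Ogn, Fmod and Aspn overlap.

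Outside these 8, the family has 10 further genes, of which 5 could be tested. Omd (osteomodulin), the class II protein that binds bone mineral, rose from 8.005 ± 3.94 (SD, n = 9) to 21.3 ± 6.08 (SD, n = 8) CPM, 2.64-fold with an adjusted p of 3.71e-04, and 7 of the 8 western diet mice lay above the chow range. Chad (chondroadherin), a cartilage protein of class IV, fell from 6.29 ± 1.81 (SD, n = 9) to 3.89 ± 1.30 (SD, n = 8) CPM, with a log2 difference of −0.69 ± 0.22 (SE) and an adjusted p of 0.0132. Tsku (tsukushi), which liver secretes into blood, did not pass at 192 ± 48.6 (SD, n = 8) against 140 ± 67.2 (SD, n = 9) CPM. Ecm2 and Chadl did not pass either, with adjusted p of 0.0897 and 0.812, although Ecm2 rose with library size only. Kera was at 0 in every library, Epyc had 1 count in 1 chow library, and Optc, Nyx and Podnl1 were too low to be tested.

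Some family genes lie in clusters on the chromosomes, and the calls or fold changes of neighbours in them were not all alike. On chromosome 10, Lum starts 47.3 kb beyond the end of Dcn; Lum rose 3.93-fold and Dcn 1.46-fold, while Kera, 34.3 kb beyond Lum, was at 0. On chromosome 13 the order is Ecm2, Aspn, Omd and Ogn, with 15.4 kb between Omd, which rose, and Ogn, which did not. All 4 positions lie inside the span of Cenpp (49464025 to 49652950), a kinetochore gene at 0.707 CPM on western diet and 0.645 CPM on chow. Since the strand setting of the counting is not given in the sources used here, reads of Cenpp and of these genes may not be fully parted. On chromosome 1, Prelp and Fmod lie 107.2 kb apart, and Btg2, a growth arrest gene 26585 bases from Fmod, rose from 21.6 to 95.2 CPM with an adjusted p of 6.88e-05 while Fmod did not pass.

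**Figure D2:**
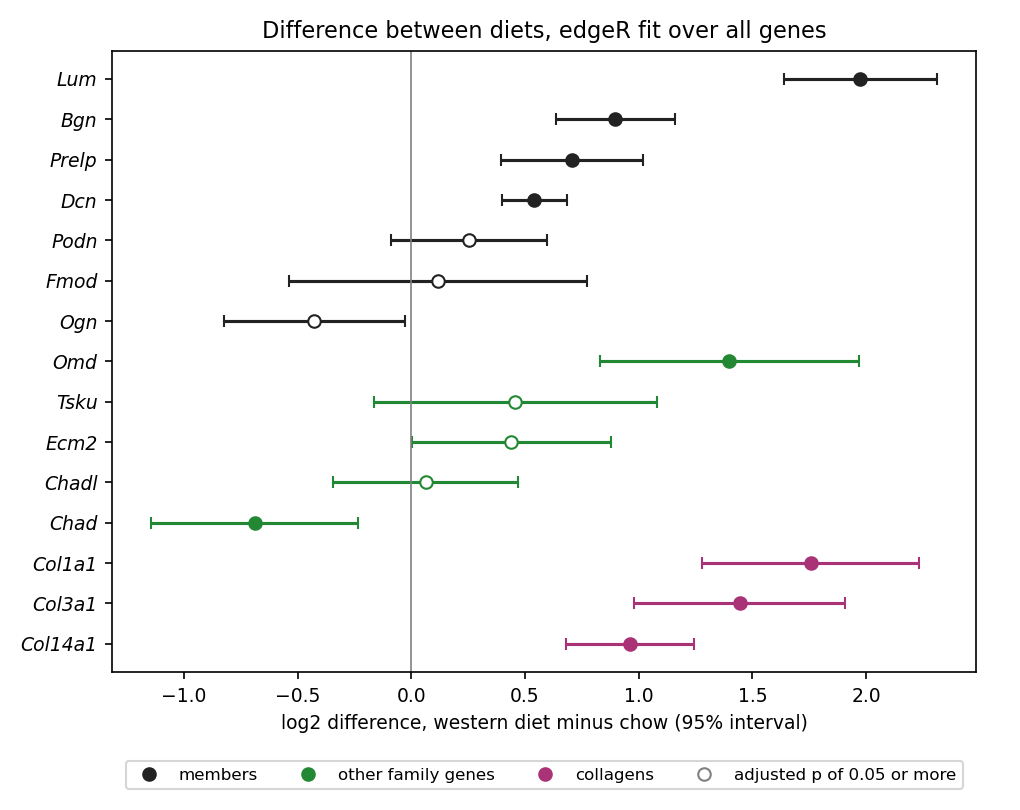
Log2 difference, western diet minus chow, with its 95% interval from the edgeR fit (horizontal axis) for the 7 tested members, the 5 other tested family genes and 3 collagens, with filled points for an adjusted p under 0.05. Lum at 1.97 is the farthest to the right, the intervals of Podn and Fmod span 0, and that of Ogn, at −0.82 to −0.028, lies below 0 although its adjusted p is 0.0714.

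Not all members changed alike between the diets. This was tested on ratios inside each library, since a ratio of 2 genes does not depend on how libraries are scaled. An exact two-sided permutation test over all 24310 labellings of the mice was made for each of the 21 pairs of tested members. After Benjamini-Hochberg adjustment 15 passed. Pairs of other genes were not tested in this way, so the share that would pass, or not overlap, among genes at large is not known. Of all tested genes 48.4% differed between the diets, so the count is not shown to be particular to this family. All 6 pairs with Lum passed. The log2 ratio of Dcn to Lum counts was 2.63 ± 0.376 (SD, n = 8) after western diet, against 3.998 ± 0.199 (SD, n = 9) after chow, with no overlap between the diets. Lum thus rose 2.58-fold relative to Dcn, with an exact permutation p of 4.11e-05, the smallest the design can give, and an adjusted p of 1.44e-04. Relative to Bgn it rose 2.07-fold, relative to Prelp 2.34-fold and relative to Podn 3.23-fold, each with no overlap and the same exact permutation p. The widest change was that of Lum to Ogn, 5.31-fold.

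Among the other members that rose, Bgn gained on Dcn by 1.25-fold (exact permutation, adjusted p = 0.0187), and in 7 of the 8 western diet mice the ratio of Bgn to Dcn lay above every chow mouse; in replicate 3 it lay below them all. The ratio of Dcn to Prelp did not pass: its log2 difference was −0.15 with an exact permutation adjusted p of 0.269. That of Bgn to Prelp was 0.17 with an exact permutation adjusted p of 0.0293, a call that was lost without western diet replicate 1 or 8, without chow replicate 1, 2 or 6, without both libraries with pancreas transcripts and with medians in place of means, with adjusted p from 0.0503 to 0.0767. That of Bgn to Fmod, 0.83 with an exact permutation adjusted p of 0.0287, was lost without western diet replicate 1 or 4 or chow replicate 2. Ogn lost ground to every member that rose: Dcn gained 2.06-fold on it with no overlap between the diets, Bgn 2.56-fold and Prelp 2.27-fold. Podn, which did not pass on its own, gained 1.64-fold on Ogn (exact permutation, adjusted p = 0.0182). Fmod to Ogn, Fmod to Podn, Dcn to Fmod, Dcn to Podn and Prelp to Fmod did not pass, with exact permutation adjusted p from 0.0659 to 0.527. Of these, Prelp to Fmod passed with medians (0.0285), with a pseudocount of 2 counts (0.0489) and without western diet replicate 2, 5 or 7 or chow replicate 5. Dcn to Podn passed without western diet replicate 2 or 6 or chow replicate 5, and Fmod to Ogn without western diet replicate 3 (exact permutation, adjusted p = 0.0311).

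As shares of the reads that fell on the 8 members, which also depend on transcript length, Lum went from 2.99% ± 0.448 (SD, n = 9) on chow to 6.90% ± 1.37 (SD, n = 8) on western diet. Ogn went from 1.24% ± 0.193 (SD, n = 9) to 0.563% ± 0.228 (SD, n = 8). Dcn held 47.5% ± 1.84 (SD, n = 9) and 42.3% ± 5.10 (SD, n = 8), and Prelp held 16.0% ± 1.75 (SD, n = 9) and 15.7% ± 1.63 (SD, n = 8). The summed level of the 8 was 596 ± 61.9 (SD, n = 9) CPM on chow and 987 ± 169 (SD, n = 8) CPM on western diet, with every western diet mouse above every chow mouse.

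The proteoglycans were then set against Col1a1 and Col3a1, main chains of the fibrils to which they bind. Of 14 ratios in the same exact permutation test, 13 passed after adjustment. Both collagens rose strongly: 98.0% of all tested genes had a smaller log2 difference than Col1a1 and 96.0% a smaller one than Col3a1. A gene with little change of its own thus loses to them, and the share of all genes that would do so was not computed. Dcn lost 2.16-fold to Col1a1 (exact permutation, adjusted p = 0.00166), Bgn 1.73-fold, Prelp 1.95-fold, Podn 2.70-fold, Fmod 3.09-fold and Ogn 4.44-fold. Lum was the exception. Its log2 ratio to Col1a1 was −0.31 ± 0.509 (SD, n = 8) after western diet, against −0.57 ± 0.261 (SD, n = 9) after chow, and the difference of 0.26 did not pass (exact permutation, adjusted p = 0.201). On Col3a1 Lum gained 1.46-fold (exact permutation, adjusted p = 0.00432), whereas Dcn lost 1.77-fold, Bgn 1.41-fold and Prelp 1.596-fold to it. Of the 14 fibril collagens and collagen partners listed, 12 rose and none fell, while Col5a3 and Fn1 did not pass. The median log2 difference of the 14 was 0.97, against −0.0091 over all tested genes, of which 24.8% rose and 23.6% fell. Col1a1, Col6a3 and Col1a2 had the largest rises of that list, with log2 differences of 1.76, 1.46 and 1.46.

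**Figure D3:**
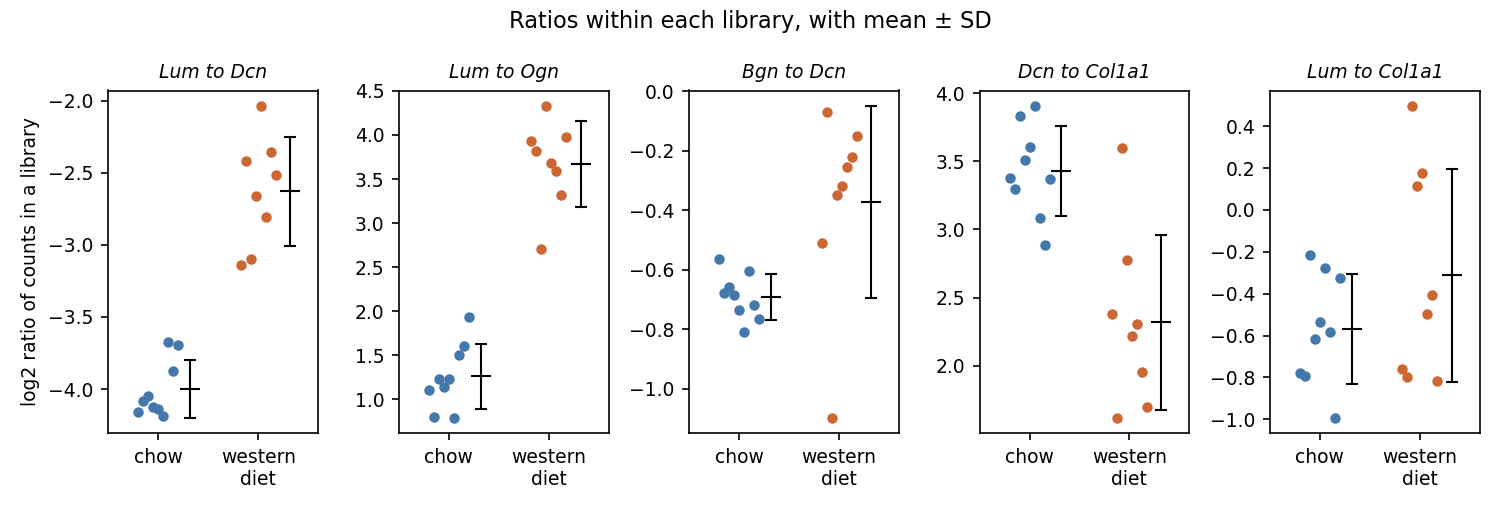
Log2 ratio of the counts of 2 genes inside each library (vertical axes, each with its own range), with 1 point per mouse and the mean ± SD (n = 9 chow, n = 8 western diet). Lum to Dcn and Lum to Ogn part the diets with no overlap, western diet replicate 3 is the low point of Bgn to Dcn and the high western diet point of Dcn to Col1a1, and Lum to Col1a1 overlaps.

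The western diet mice differed from each other, and their order in Lum and Dcn was broadly like that in Bgn and Prelp. Spearman rho on western diet was 0.738 for Dcn with Bgn and 0.857 for Dcn with Prelp. For Lum it was 0.810 with Bgn and 0.833 with Prelp. None of these 4 passed (exact permutation, adjusted p from 0.0750 to 0.146). The coefficient of variation among western diet mice was 32.2% for Lum, 24.5% for Prelp, 23.8% for Bgn and 9.81% for Dcn, against 13.1%, 20.4%, 10.5% and 8.37% among chow mice. Western diet replicate 3 stood nearer to chow in Bgn and Prelp than in Lum and Dcn. On a scale that runs from the mean of chow (0%) up to that of the remaining 7 western diet mice (100%), it had gone 2.16% of the way in Bgn, −3.44% in Prelp, 7.08% in Col1a1 and −1.12% in Col3a1. In Dcn it had gone 75.9% of the way and in Lum 48.9%, and both stood above every chow mouse. Its hepatocyte markers summed to 12536 CPM, the highest of all 17 libraries. Its portal fibroblast and bile duct markers, at 221 and 37.0 CPM, were the lowest on western diet. Its smooth muscle markers, at 81.8 CPM, were the highest on western diet. Its stellate cell markers summed to 544 CPM, above replicate 1 at 485 CPM, and its mesothelial markers to 37.3 CPM. The part of these cells in the result was not tested. Without this mouse the log2 differences were 0.99 for Bgn, 0.79 for Prelp, 2.05 for Lum and 0.55 for Dcn, and all 4 passed.

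Western diet replicate 1 was low in Prelp, at 13.4% of the way, and stood at 41.6% in Lum, 48.2% in Bgn and 57.5% in Dcn. Western diet replicate 5 was at 202% in Lum but at 139% in Dcn, 129% in Bgn and 137% in Prelp. In Omd, replicate 1 was at 105%, above its place in Lum and Prelp, and replicate 3 at 18.8%, between its places in these 2.

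**Figure D4:**
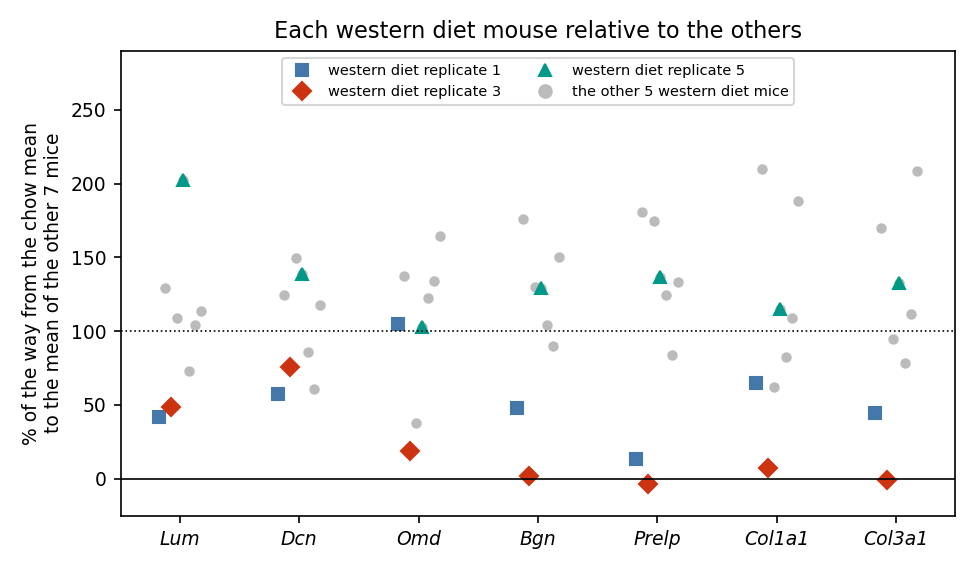
Position of each western diet mouse between chow (0%, the mean of 9 mice, solid line) and the 7 remaining western diet mice (100%, their mean, dotted line) for 5 family genes and 2 collagens, with replicates 1, 3 and 5 marked. Replicate 3 lies near 0% in Bgn, Prelp, Col1a1 and Col3a1 and at 48.9% and 75.9% in Lum and Dcn.

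Within a diet, Bgn and Prelp varied together among mice. Relations of log2 CPM were computed for 35 pairs per diet, the 21 pairs of members and each member with Col1a1 and Col3a1, with exact permutation p from all orders of the mice and adjustment over the 35. On western diet Bgn and Prelp had a Pearson r of 0.956 (n = 8, exact permutation p = 3.72e-04, adjusted p = 0.0130) and a Spearman rho of 0.929 (exact permutation, adjusted p = 0.0750). On chow r was 0.898 (n = 9, exact permutation, adjusted p = 0.0343) and rho 0.933 (exact permutation, adjusted p = 0.0262). Without the 2 mice farthest from the median of Bgn, r was 0.824 on western diet and 0.969 on chow. Replicate 3 is among the low points on western diet, and so is replicate 1.

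On western diet Bgn was also related to Col3a1 (r = 0.962, exact permutation, adjusted p = 0.0161) and to Col1a1 (r = 0.905, exact permutation, adjusted p = 0.0411). No Spearman rho of the 35 passed on western diet, and r fell to 0.715 and 0.645 without the 2 mice farthest from the median of Bgn. On chow the same pairs had r of 0.121 and 0.164 and did not pass; whether the diets differ in this was not tested. Dcn and Lum, neighbours on chromosome 10, had r of 0.752 on western diet (exact permutation, adjusted p = 0.1251) and 0.241 on chow (exact permutation, adjusted p = 0.759), and neither passed. Ogn passed with no other member in either diet.

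**Figure D5:**
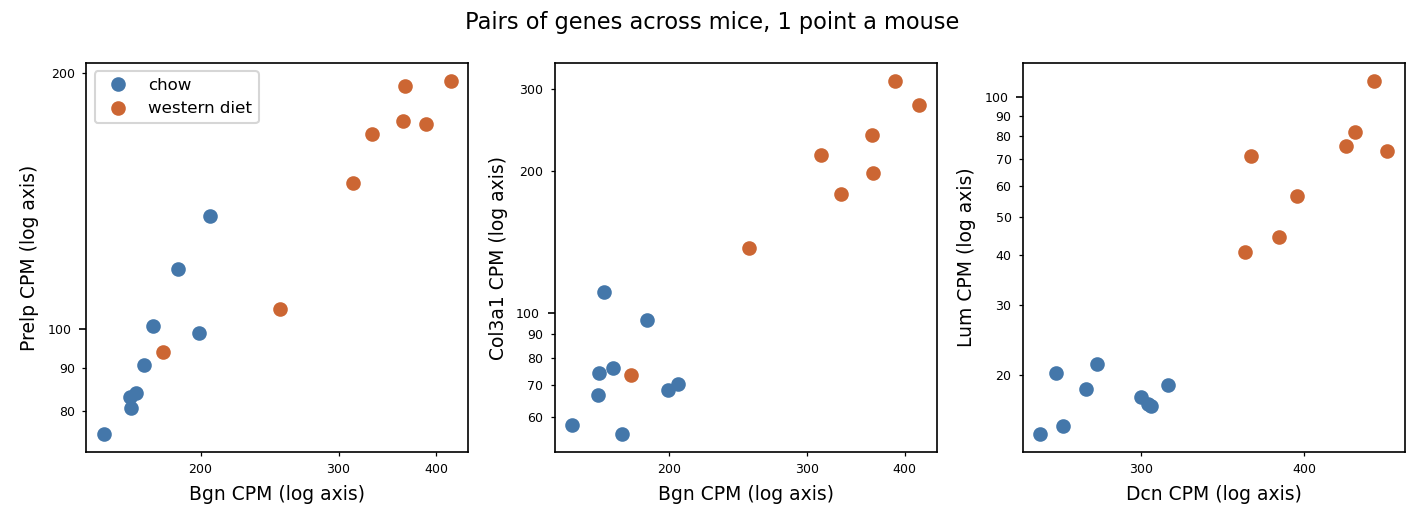
Levels of 3 pairs of genes in CPM on log axes, with 1 point per mouse coloured by diet. Bgn and Prelp rise together inside both diets (r = 0.898 on chow, 0.956 on western diet), Bgn and Col3a1 inside the western diet group with 1 western diet mouse among the chow mice, and Dcn and Lum fall into 2 separate groups of mice.

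Genes whose levels ran closest to each member across the 17 mice, after the mean of each diet was taken out, mostly differed between members. They are given as a description, with no test, out of 13020 genes whose log2 CPM averaged 1 or more. For Bgn they were Emilin1 (r = 0.923), a glycoprotein of elastic fibres, Col6a3 (0.916) and Nid1 (0.914), a basement membrane linker. For Prelp they were Bgn (0.912), the basement membrane collagen Col4a1 (0.897) and Emilin1 (0.892). For Lum they were Epb41l2 (0.928), Nav1 (0.889) and Mmp2 (0.885), a gelatinase. For Dcn, Ubn1 (0.856), Pde2a (0.828) and Mylip (0.827) came first. None of these rose, and Pde2a fell, at a log2 difference of −0.50 (edgeR, adjusted p = 0.00154). For Fmod the first was Mfap4 (0.877), a fibre protein, for Ogn it was Add3 (0.840) and for Podn Dact3 (0.773). These r pool both diets without scaling, so the diet in which a gene varied more among mice weighs more in them.

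The enzymes that build the sugar chains of these proteins did not move as 1 group. Of 10 tested genes for the linker, the tyrosine sulphation of the core and the donors of sugar and sulphate, 2 rose and 4 fell. Among all tested genes the shares were 24.8% for rises and 23.6% for falls. Papss1, which makes the sulphate donor, rose by 0.39 on the log2 scale and Tpst2, a tyrosine sulphotransferase, by 0.41. Fam20b, the xylose kinase of the linker, fell by 0.43, Ugdh, which makes glucuronic acid donor, fell by 0.41, B3gat3 fell by 0.26 and Xylt2, which starts the chain, fell by 0.18. Scaled by library size only, Fam20b was the 1 fall left of these 4. Of 16 enzymes of chondroitin and dermatan sulphate, 6 rose and 1 fell. Chst11, a chondroitin sulphotransferase, rose 3.95-fold from 1.33 ± 0.620 (SD, n = 9) to 5.25 ± 1.98 (SD, n = 8) CPM, Ust rose 2.25-fold and Chst14, the dermatan sulphotransferase, 1.84-fold, while Chpf2 fell by 0.58 on the log2 scale. None of the 4 tested enzymes of keratan sulphate, the chain of lumican and fibromodulin, passed edgeR's test at an adjusted or at an unadjusted p under 0.05; without both libraries with pancreas transcripts B4galt4 rose.

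Of 21 receptors and growth factors that the family is known to bind, 11 rose and 2 fell, a median log2 difference of 0.76. Among receptors of biglycan, Tlr2 rose 2.61-fold from 7.61 ± 1.87 (SD, n = 9) to 20.02 ± 4.50 (SD, n = 8) CPM, and its partner Cd14 rose 4.27-fold. Tgfb2, a growth factor held by decorin and biglycan, rose 3.35-fold. The receptors Kdr and Met, both known to bind decorin, fell by 0.67 and 0.30 on the log2 scale, that of Met not with library size only, and Egfr did not pass (adjusted p = 0.797). Of 10 proteases that can cleave the family, 8 rose and Bmp1, which trims the precursors of biglycan and osteoglycin, fell by 0.38. Mmp12, the macrophage elastase, rose 9.998-fold from 8.22 ± 1.99 (SD, n = 9) to 81.95 ± 25.2 (SD, n = 8) CPM, Mmp7 rose 5.998-fold and Adamts4 5.54-fold. Of 15 other proteoglycans 5 rose and 2 fell, with a median log2 difference of 0.069. Over all tested genes 24.8% rose and 23.6% fell. Esm1 rose 6.96-fold, Gpc6 2.80-fold and Sdc3 1.89-fold, while Sdc1 fell by 0.49 and Sdc2 by 0.26. With library size only 7 of the 15 rose and none fell. Without both libraries with pancreas transcripts 5 of 14 tested rose and 1 fell. There the fall of Sdc1 was lost, Vcan left the rises and Agrn joined them.

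Markers of the cells that make these proteins moved with the diet too. Among all tested genes 24.8% rose and 23.6% fell, and with library size only 73.5% of calls were rises. Of 10 markers of stellate cells, the liver pericytes, 7 rose and Vipr1 fell (9 and none with library size only), and their sum was 485 to 814 CPM on western diet and 363 to 536 CPM on chow. Of 11 markers of portal fibroblasts 7 rose and none fell, with sums of 221 to 485 and 158 to 361 CPM. The sums were highest in western diet replicate 5 and chow replicate 2, the libraries with pancreas transcripts. Gsn alone averaged 209 CPM on western diet and 148 CPM on chow, so it makes up most of these sums. The 4 that did not pass were Fbln1, Dpep1, Clec3b and Pi16, at log2 differences of 0.77, 0.37, −0.30 and −0.41. Of 5 tested markers of smooth muscle Tagln rose, with sums of 32.03 to 81.8 and 24.7 to 164 CPM, and the median log2 difference of the list was −0.093, or 0.53 without both libraries with pancreas transcripts. Of 5 mesothelial ones Gpm6a, Wt1 and Krt19 rose, with sums of 18.4 to 47.8 and 7.95 to 47.4 CPM, while Msln and Upk3b, at log2 differences of −0.73 and −0.44, did not pass. All 5 tested bile duct markers rose, Krt19 among them again, with sums of 37.0 to 84.9 and 17.8 to 58.4 CPM. Chow replicate 2 had the highest chow sum in these 3 lists, and the next chow sums were 65.1, 24.8 and 37.1 CPM. All sums cover every listed marker with a value, tested or not. Of 7 hepatocyte markers Alb and Serpina1a fell, the latter not with library size only or without the libraries with pancreas transcripts, and none of the markers of these lists was at 0 in every library. The part of these cells in the rises of Lum, Bgn, Prelp and Dcn was not tested.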

How the data were processed

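Per gene, the authors deposited expected counts in steps of 0.5, not scaled between libraries. Per the submitters' processing notes the authors used STAR 2.4.1c, HOMER, FastQC, MultiQC and mm10; for counting options, strand and annotation nothing is given in the sources used here. Groups follow the treatment field of the labels, since the source name reads western diet for all 17 samples; replicates are numbered in the order of the labels. Each file held 24940 genes, of which 3 had no value. Libraries of a diet were not alike within sampling noise (chi-square per degree of freedom 3.76 to 37.8 over 36 chow pairs and 4.70 to 23.98 over 28 western diet pairs).

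Values were rounded and tested with edgeR 4.0.16 (R 4.3.3): filterByExpr, TMM factors, robust dispersions, quasi-likelihood test on diet, a prior count of 0.125, Benjamini-Hochberg adjustment over all 13204 tested genes at 0.05. Common dispersion was 0.0360 (biological coefficient of variation 19.0%). A count of 0 allows 3 counts, 0.331 to 0.832 CPM, for counting error only. Ratios used a pseudocount of 0.5 counts, relations log2 CPM with a prior count of 2. Ratios, relations and plots were made with scipy 1.17.1, numpy 2.4.6, matplotlib 3.10.9 and pandas 2.3.3 under Python 3.11.15. The steps were tested on simulated data. Positions come from a RefSeq gene table of GRCm38.p6; 24294 of 24937 genes and all 8 members matched by symbol.

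The members and lists were chosen with earlier results of these data known. Named were all members and family genes, up to 3 genes per list that rose most and 3 that fell most, the 3 genes most like each member, neighbours on the chromosome and any gene of a count of 5 or fewer; any others were picked with their values in view. Alternatives were RLE factors, library size alone, DESeq2 1.42.0, limma-voom (limma 3.58.1), no low count filter, a CPM of at least 1 in 8 libraries, glmTreat against a 1.5-fold change, an adjusted p under 0.01, doubled counts, leaving out each library or both libraries with pancreas transcripts, a pseudocount of 2 counts and medians.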

Additional observations from a re-analysis of the deposited data

How the results depend on the processing

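Dcn, Bgn, Lum, Prelp and Omd rose under RLE factors, library size alone, DESeq2, limma-voom, both other filters, doubled counts, an adjusted p under 0.01, without both libraries with pancreas transcripts and without each of the 17 libraries in turn. Against a 1.5-fold change (glmTreat), 1108 genes rose and 195 fell, and 2 members, Bgn and Lum, rose; Dcn and Prelp were lost, the latter with an adjusted p of 0.487. With library size alone 4485 genes rose and 1615 fell. The number of members that fell was 1, Ogn, without both libraries with pancreas transcripts and ranged from 0 to 1 when single libraries were left out. The log2 difference of Fmod then ranged from −0.0057 to 0.31 and was below 0 without western diet replicate 5 and, at −0.0038, without chow replicate 5. Chad was lost at an adjusted p under 0.01 and in glmTreat. The number of member pairs whose ratio differed ranged from 13 to 17 when single libraries were left out, and 13 ratios to collagens passed each time. With RLE factors 2 relations passed on chow in place of 1, and without western diet replicate 5 there were 2 on western diet in place of 3. The cause of these changes was not tested. No paired analysis was possible because nothing in the labels ties a western diet mouse to a chow mouse. Aspn had 2 to 14 counts a library, and no difference was detectable at that depth.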
